A study of Homo sapiens with 6 samples.

Results

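The genes described here encode the sensors, the transcription factor XBP1 and a set of known effectors of the unfolded protein response of the endoplasmic reticulum (ER). They are 10 genes taken by symbol from a table of 58735 genes: *ERN1*, *EIF2AK3*, *ATF6*, *XBP1*, *SDF2L1*, *CRELD2*, *MANF*, *HERPUD1*, *EDEM1* and *SEL1L*. All 10 were measured in every library and passed the filter on low values, as did 13621 genes in all. As background, proteins that enter the ER fold there with the help of chaperones, and misfolded proteins that accumulate are sensed by 3 membrane proteins. IRE1 (encoded by *ERN1*) splices *XBP1* mRNA, PERK (*EIF2AK3*) phosphorylates the translation factor eIF2alpha, and ATF6 is cut in the Golgi to release a transcription factor. The resulting factors are known to raise chaperones and the proteins of ER-associated degradation (ERAD), which carries misfolded proteins back to the cytosol for the proteasome. Thyroid follicular cells depend on this machinery because they secrete large amounts of thyroglobulin.

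mRNA of TPC-1 cells, a human papillary thyroid carcinoma line, was sequenced in 3 libraries of the wild strain (genotype WT) and 3 libraries of *RRM2*-OE-TPC-1. The latter were infected with a lentivirus that drives *RRM2*, the small subunit of ribonucleotide reductase, from a CMV promoter and were selected with puromycin. For the wild strain no empty vector is described, so that infection and selection cannot be told apart from *RRM2* itself. The study describes its replicates as biological, but it describes no separate infections or separately derived lines for them. The p-values given here therefore measure the spread between libraries of each strain, not between infections. The methods give poly(A) selection where the labels give ribosomal RNA depletion followed by RNase R. For the libraries of replicates 2 and 3 of the overexpressing line the genotype label is written RRM3 and RRM4, although both titles name RRM2.

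Each library held 14317091 to 17084067 reads on genes, and the 10 genes held 128 to 4476 reads per library. *RRM2* was measured at 9.17, 9.05 and 8.52 FPKM (fragments per kilobase of gene, scaled to depth) in TPC-1 and at 50.4, 47.5 and 47.2 FPKM in *RRM2*-OE-TPC-1, a log2 fold change of 2.43 (adjusted p = 1.11e-08), with all 3 libraries labelled as overexpressing above the other 3. Thyroid transcription factors *PAX8* and *FOXE1* were present in all libraries, *NKX2-1* was at 0 in all 6, and *TG* and *TSHR* were near 0. The summed FPKM of 14 thyroid and epithelial markers was 117 to 121 in TPC-1 and 150 to 154 in *RRM2*-OE-TPC-1, although of the 5 genes tested 2 were higher and 2 were lower, with a median log2 fold change of -0.21. *KRT18*, at 1.05, had the largest change among them. The sum of 8 fibroblast markers was 2.98 to 3.39 and 2.95 to 3.05, with *COL1A2*, *COL3A1* and *DCN* at 0 in all libraries. Of the 2 tested, 1 was lower. That of 8 blood cell and endothelial markers was 1.22 to 1.46 and 0.222 to 0.253, with 3 at 0 in all libraries, among them *CD3E* and *MS4A1*. The only one tested was lower (log2 fold change -2.71). As even the sum in *RRM2*-OE-TPC-1 lies below the filter of 0.5 FPKM, this gene passed it only through TPC-1. The filter fixed its direction, which carries no evidence. The part of these markers in the results was not tested. In bulk RNA, fewer cells that express a gene and less of its RNA per cell cannot be told apart.

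Sequence elements through which this response is known to act were looked for in RefSeq windows (GRCh38.p14) from 250 bases before to 50 bases after each gene start, and all 10 genes had a window. The ER stress element ERSE was searched on both strands as CCAAT and CCACG with 9 bases between them, and it was present in 27 of 35116 windows (0.077%). ERSE-II was searched as ATTGG and CCACG with 1 base between them and was present in 19 windows (0.054%). *CRELD2* and *XBP1* held an ERSE, and *HERPUD1* and *SDF2L1* held an ERSE-II. These 4 stretches are shown because they carry the same elements in genes that changed in opposite directions. Capitals mark both parts of each element, which read CGTGG and ATTGG (ERSE) or CGTGG and CCAAT (ERSE-II) where the element lies on the other strand. Each is written on the strand of its gene.
CRELD2, ERSE at -80 from the start, chr22:49918539-49918587, plus strand: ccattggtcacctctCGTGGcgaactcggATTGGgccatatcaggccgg
XBP1, ERSE at -52, chr22:28800598-28800636, minus strand: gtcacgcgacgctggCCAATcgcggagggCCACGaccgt
HERPUD1, ERSE-II at -117, chr16:56932010-56932047, plus strand: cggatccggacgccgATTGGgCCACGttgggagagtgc
SDF2L1, ERSE-II at -188, chr22:21642099-21642139, plus strand: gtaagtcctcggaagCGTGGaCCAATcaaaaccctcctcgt
None of these elements lay in an annotated exon, and the *CRELD2* element lay inside the longer gene that GENCODE 29 annotates. The element UPRE, searched as TGACGTGG on both strands, was present in 256 windows (0.729%) and in the window of 0 of the 10 genes. A match is a run of letters and was not tested as a binding site.

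Of the 10 genes, 3 were higher and 5 were lower in *RRM2*-OE-TPC-1, and 2 did not pass the test (limma on log2 of FPKM + 0.1, Benjamini-Hochberg adjusted p of 0.05 or less). The 3 that rose were the luminal and secreted proteins *SDF2L1*, *CRELD2* and *MANF*, and the 5 that fell were *HERPUD1*, *XBP1*, *ERN1*, *ATF6* and *EDEM1*. Changes were common in this comparison: 67.6% of all genes tested were called, 34.9% higher and 32.7% lower, so that 8 of 10 is near the background. The libraries of the groups did not overlap for 8 of the 10 genes and for 72.2% of all genes tested. A call together with a log2 fold change of at least 1 in size was made for 2 genes upward (*SDF2L1* and *CRELD2*) and 1 downward (*HERPUD1*), where 4.48% and 6.97% of all genes tested were so called. The median log2 fold change was -0.11 over the 10 genes and 0.011 over all genes tested.

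**Figure D1:**
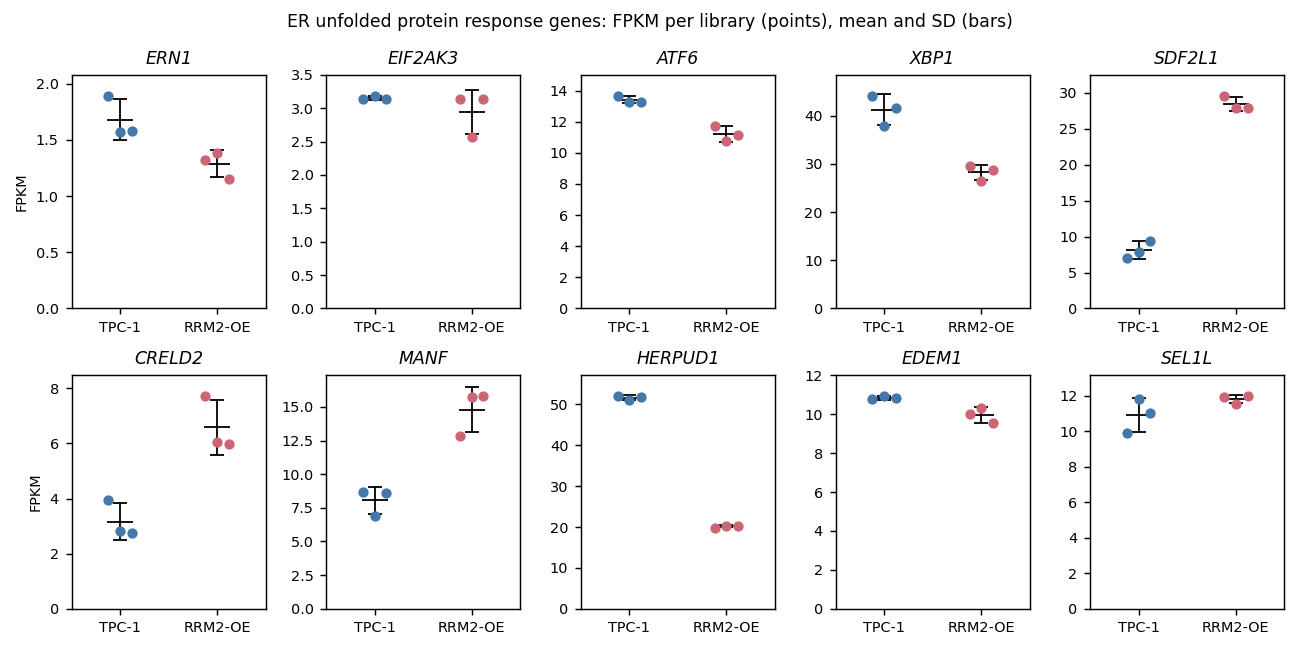
FPKM of the 10 ER unfolded protein response genes in each library (points; 3 TPC-1 and 3 *RRM2*-OE-TPC-1 libraries per panel), with the mean and SD as bars; each panel has its own axis from 0. *SDF2L1*, *CRELD2* and *MANF* lie higher in all *RRM2*-OE-TPC-1 libraries, *HERPUD1* and *XBP1* lie lower in all, and the libraries overlap for *EIF2AK3* and *SEL1L*.

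Among the sensors and their transcription factor, 3 of 4 fell, each by less than 1 on the log2 scale, where 32.7% of all genes tested were lower. With so few genes, chosen with earlier results known, no change of the group is read from this count. *XBP1* (chromosome 22, 28794555 to 28800597, minus strand, GRCh38), whose spliced mRNA encodes the active factor of the IRE1 arm, was measured at 44.1, 37.8 and 41.7 FPKM in TPC-1 and at 29.5, 26.5 and 28.8 FPKM in *RRM2*-OE-TPC-1. Every *RRM2*-OE-TPC-1 library lay below every TPC-1 library. The means were 41.2 ± 3.20 and 28.2 ± 1.57 (SD, n = 3), and the log2 fold change was -0.54 (SE 0.0639, 95% interval -0.69 to -0.39, adjusted p = 1.24e-04). The deposited table gives 1 value per gene, so it does not separate spliced from unspliced *XBP1*. The stretch that IRE1 is known to remove is given in capitals because that value combines mRNA with and without it.
XBP1, bases 567 to 592 of the first listed transcript with flanks, GENCODE 29: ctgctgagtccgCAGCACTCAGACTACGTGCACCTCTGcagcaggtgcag
Of 7 annotated *XBP1* transcripts, 4 hold these 26 bases and 2 hold the joined form without them, and reads of all 7 count toward the same gene. The pseudogene *XBP1P1* had a mean of 0.386 FPKM.

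*ATF6* (chromosome 1, 161766294 to 161964070, plus strand), the sensor that itself becomes a transcription factor, was measured at 13.7, 13.3 and 13.3 FPKM in TPC-1 and at 11.7, 10.8 and 11.1 FPKM in *RRM2*-OE-TPC-1. All 3 *RRM2*-OE-TPC-1 libraries were lower, with means of 13.4 ± 0.221 and 11.2 ± 0.483 (SD, n = 3), and the log2 fold change was -0.26 (SE 0.0447, adjusted p = 0.00113). *ERN1* (chromosome 17, 64039142 to 64130819, minus strand), which encodes the kinase and ribonuclease IRE1, had the lowest level of the 10 genes, at 1.89, 1.57 and 1.58 FPKM in TPC-1 and 1.32, 1.39 and 1.16 FPKM in *RRM2*-OE-TPC-1. The groups did not overlap, and *ERN1* fell by 0.36 on the log2 scale (95% interval -0.64 to -0.08, adjusted p = 0.0299). This call was lost without TPC-1 replicate 1 (adjusted p = 0.0997), *RRM2*-OE-TPC-1 replicate 1 (0.0513) or replicate 3 (0.0924).

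*EIF2AK3* (chromosome 2, 88556741 to 88627576, minus strand), which encodes PERK, was measured at 3.13, 3.18 and 3.13 FPKM in TPC-1 and at 3.13, 2.57 and 3.14 FPKM in *RRM2*-OE-TPC-1. Replicate 2 of *RRM2*-OE-TPC-1 was the lowest of the 6 libraries, and the other 2 of its group lay among the TPC-1 values. The log2 fold change was -0.098 (95% interval -0.31 to 0.12, adjusted p = 0.372), and without that library it was -0.0051. The interval includes the change measured for *ATF6*, and whether the sensors differed from each other was not tested. Exons of *EIF2AK3* share 781 bases with *AC104134.1* and 38 bases with *AC062029.1* on the opposite strand, and these had means of 0.0174 and 0.196 FPKM. The library kit keeps strand, and whether strand was used in counting is not given in the sources used here.

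The luminal and secreted proteins all rose, by 1.83-fold to 3.51-fold on the scale of FPKM + 0.1, where 34.9% of all genes tested were higher. They are only 3 genes, also chosen with earlier results known. *SDF2L1* (chromosome 22, 21642261 to 21644298, plus strand), a luminal partner of the HSP70 chaperone BiP and its cochaperones, was measured at 6.98, 7.90 and 9.42 FPKM in TPC-1 and at 29.6, 27.9 and 27.9 FPKM in *RRM2*-OE-TPC-1. The lowest *RRM2*-OE-TPC-1 library lay far above the highest TPC-1 library. The means were 8.10 ± 1.23 and 28.5 ± 0.972 (SD, n = 3), and the log2 fold change was 1.81 (SE 0.0965, 95% interval 1.59 to 2.03, adjusted p = 1.60e-06). Of all genes tested, 0.866% had a larger log2 fold change.

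*CRELD2* (chromosome 22, 49918167 to 49927540, plus strand), an ER-resident and secreted protein known to be induced by ER stress, was measured at 3.94, 2.81 and 2.73 FPKM in TPC-1 and at 7.72, 6.04 and 5.98 FPKM in *RRM2*-OE-TPC-1. The groups did not overlap, and in each group 1 library stood above the other two. The log2 fold change was 1.04 (SE 0.154, 95% interval 0.69 to 1.40, adjusted p = 4.51e-04), and it ranged from 0.92 to 1.21 when single libraries were left out. Exons of *CRELD2* share 168 bases (3.25%) with *ALG12* on the opposite strand, a gene with a mean of 2.57 FPKM.

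*MANF* (chromosome 3, 51385047 to 51389397, plus strand), a secreted trophic factor that also binds BiP in the ER, was measured at 8.70, 6.89 and 8.58 FPKM in TPC-1 and at 12.9, 15.7 and 15.8 FPKM in *RRM2*-OE-TPC-1. All 3 *RRM2*-OE-TPC-1 libraries were above all TPC-1 libraries. The means were 8.06 ± 1.01 and 14.8 ± 1.68 (SD, n = 3), and the log2 fold change was 0.87 (SE 0.110, 95% interval 0.62 to 1.12, adjusted p = 1.82e-04).

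The degradation factors did not move as a group. *HERPUD1* (chromosome 16, 56932048 to 56944863, plus strand), an ER membrane protein with a ubiquitin-like domain that works with the HRD1 ubiquitin ligase, had the largest fall of the 10 genes. It was measured at 52.0, 51.0 and 51.9 FPKM in TPC-1 and at 19.9, 20.3 and 20.3 FPKM in *RRM2*-OE-TPC-1. The groups were far apart and the spread within each was small, with means of 51.7 ± 0.543 and 20.2 ± 0.258 (SD, n = 3). *HERPUD1* fell by 1.35 on the log2 scale (SE 0.0305, 95% interval -1.42 to -1.28, adjusted p = 3.09e-08), that is, 2.55-fold, and 3.76% of all genes tested had a smaller log2 fold change.

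*EDEM1* (chromosome 3, 5187646 to 5219957, plus strand), which directs misfolded glycoproteins to degradation, was measured at 10.76, 10.94 and 10.84 FPKM in TPC-1 and at 10.01, 10.35 and 9.53 FPKM in *RRM2*-OE-TPC-1. The groups lay apart by a small margin, and *EDEM1* fell by 0.12 on the log2 scale (SE 0.0450, adjusted p = 0.0407). Leaving out any library but *RRM2*-OE-TPC-1 replicate 2 ended the call, with adjusted p values of 0.0698, 0.0916 and 0.0890 without TPC-1 replicates 1, 2 and 3 and of 0.0712 and 0.140 without *RRM2*-OE-TPC-1 replicates 1 and 3. Its exons share 653 bases with *AC026202.3* on the opposite strand, which was at 0.0 FPKM. *SEL1L* (chromosome 14, 81471549 to 81533861, minus strand), the partner that holds HRD1 in its complex, was measured at 9.89, 11.79 and 11.01 FPKM in TPC-1 and at 11.89, 11.54 and 11.97 FPKM in *RRM2*-OE-TPC-1. Here TPC-1 replicate 2 lay within the range of the other group, and the log2 fold change was 0.12 (95% interval -0.03 to 0.27, adjusted p = 0.141). Without TPC-1 replicate 2 it was 0.18 and was called (adjusted p = 0.0339), whereas it was 0.050 without TPC-1 replicate 1 (adjusted p = 0.413) and 0.060 when scaled to library totals (adjusted p = 0.468).

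**Figure D2:**
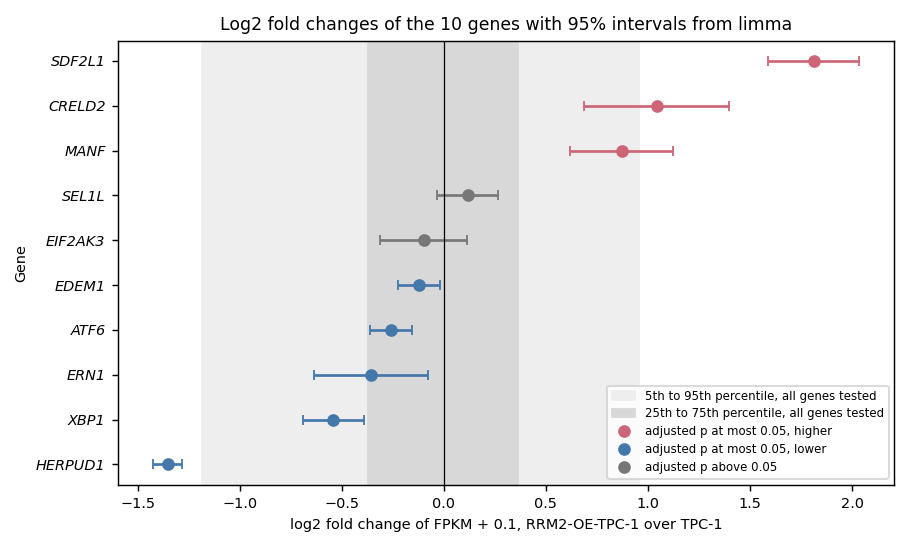
Log2 fold changes (*RRM2*-OE-TPC-1 over TPC-1, FPKM + 0.1) of the 10 genes with 95% intervals from limma; grey bands hold the middle of the log2 fold changes of all 13621 genes tested (25th to 75th percentile, -0.37 to 0.36, and 5th to 95th percentile, -1.18 to 0.95). *SDF2L1* and *CRELD2* lie above the wide band and *HERPUD1* below it, whereas *SEL1L*, *EIF2AK3*, *EDEM1*, *ATF6* and *ERN1* lie within the narrow band.

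The order of the levels per length differed between the groups. In TPC-1, *HERPUD1* (51.7 FPKM) was the highest, followed by *XBP1*, *ATF6*, *SEL1L*, *EDEM1*, *SDF2L1*, *MANF*, *CRELD2*, *EIF2AK3* and *ERN1*. The libraries of *SEL1L* and *EDEM1*, of *SDF2L1* and *MANF*, and of *CRELD2* and *EIF2AK3* overlapped, so that these neighbours could not be ordered. In *RRM2*-OE-TPC-1, *SDF2L1* (28.5 FPKM) and *XBP1* (28.2 FPKM) overlapped at the top, above *HERPUD1* (20.2 FPKM) and *MANF* (14.8 FPKM). *SEL1L* and *ATF6* came next and overlapped, followed by *EDEM1*, *CRELD2*, *EIF2AK3* and *ERN1*, each apart from its neighbour. Gene length in the table is the union of all annotated exons, so a gene with long exons that these cells do not use is understated on this scale.

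The other genes of the pathway were taken as 179 genes in 9 lists, of which 175 were tested. Of these, 85 were higher (48.6%), 49 were lower (28%) and 41 were not called, with a median log2 fold change of 0.16. Over all genes tested, 34.9% were higher and 32.7% lower, with a median of 0.011. The counts of each list stand beside these shares, and several are near them. All 175 genes are protein-coding, and of 11451 protein-coding genes fitted alone 4533 were higher and 3933 lower, with a median of 0.035. These shares are above those of all genes tested. In that fit 88 of the 175 were higher and 49 were lower. Other sensors, Golgi proteases and transducers were split, with 4 of 15 higher, 7 lower and a median of 0.0092. On the log2 scale, *TRAF2*, an adaptor of IRE1, rose by 0.67 and *RTCB*, the ligase that joins the cut *XBP1* mRNA, rose by 0.46. *NFYB*, a subunit of the factor NF-Y that binds CCAAT, fell by 0.89 on the same scale. Its partner subunits *NFYA* (log2 fold change 0.13, adjusted p = 0.135) and *NFYC* (0.043, adjusted p = 0.554) were not called. Under the 14 alternatives *NFYA* was at 0.069 to 0.21 and was called in 1, and *NFYC* was at -0.014 to 0.083 and was called in 0. *TMBIM6*, an ER membrane regulator of cell death, was not called (log2 fold change 0.0092, adjusted p = 0.800), and its sign turned when values were scaled to library totals, under voom and without *RRM2*-OE-TPC-1 replicate 1.

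Of 25 ER chaperones and cochaperones, 12 were higher and 8 were lower (48% and 32%, beside 34.9% and 32.7% of all genes tested). *CALR*, the lectin chaperone calreticulin, rose from 162 ± 2.79 to 362 ± 6.83 FPKM (SD, n = 3), a log2 fold change of 1.16 (adjusted p = 9.74e-08). *HSPA5*, which encodes BiP and is the usual readout of this response, was at 331 ± 9.96 and 305 ± 12.2 FPKM. Its log2 fold change was -0.12 (adjusted p = 0.0357), a call that was lost without TPC-1 replicate 1 (adjusted p = 0.0990) or 3 (0.0867) and without *RRM2*-OE-TPC-1 replicate 2 (0.141) or 3 (0.0829). The paralogs of the 3 genes that rose were, after their values were seen, set beside them on the log2 scale: *SDF2* rose by 0.31, whereas *CRELD1* fell by 0.45 and *CDNF*, which is related to *MANF*, fell by 1.15. *CDNF* held only 6 to 26 reads per library, and its log2 fold change was -0.47 with a pseudocount of 1 and -1.42 under voom. It was at 0.69, 0.89 and 0.94 FPKM in TPC-1 and at 0.44, 0.20 and 0.36 FPKM in *RRM2*-OE-TPC-1. It thus passed the filter of 0.5 FPKM only through TPC-1, which left only a fall possible, and its direction carries no evidence. *DNAJC3*, a BiP cochaperone that inhibits PERK, had a log2 fold change of 0.32. Of 20 disulfide enzymes tested, 11 were higher and 5 were lower, with *PDIA3*, *TMX2* and *P4HB* higher by 0.51, 0.58 and 0.23 on the log2 scale and *TXNDC12* lower (log2 fold change -0.68).

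Of 38 other ERAD genes tested, 18 were higher and 13 were lower (47.4% and 34.2%, beside 34.9% and 32.7% of all genes tested). *VCP*, the ATPase that pulls substrates out of the membrane, rose by 1.05 on the log2 scale, and *STT3B*, a subunit of oligosaccharyltransferase, rose by 0.26. *UBXN6*, a cofactor of VCP, had a log2 fold change of -0.82. Translocation and signal peptide processing genes moved mostly upward, with 19 of 24 higher, 0 lower and a median of 0.37, or 16 higher and 1 lower both with library totals and under voom. *SSR3*, a subunit of the translocon-associated complex, rose by 1.49 on the log2 scale, *TRAM1* rose by 0.41, and *SRP9*, of the signal recognition particle, was not called (0.11, adjusted p = 0.0623) except without *RRM2*-OE-TPC-1 replicate 3 (0.15, adjusted p = 0.0408) and among protein-coding genes only (adjusted p = 0.0423). The *SRP9* log2 fold change was 0.071 without *RRM2*-OE-TPC-1 replicate 1, 0.056 with library totals and 0.054 under voom, none of them called. ER to Golgi transport and retrieval genes were higher in 15 of 24 and lower in 3, with log2 fold changes of 0.73 for *TMED9*, 0.27 for *SURF4* and -0.27 for both *KDELR1* and *GOLGB1*.

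The PERK arm had the largest share of lower genes of the 9 lists, with 3 of 20 higher, 11 lower and a median of -0.21. These are 15% higher and 55% lower, beside 34.9% and 32.7% of all genes tested. *ATF4*, the transcription factor translated when eIF2alpha is phosphorylated, fell by 0.26 on the log2 scale (adjusted p = 3.80e-04). *DDIT3*, which encodes CHOP, fell from 23.4 ± 1.73 to 6.42 ± 0.305 FPKM (log2 fold change -1.85, adjusted p = 1.95e-07), and *DDIT4*, an inhibitor of mTORC1, had the largest fall of the list (-3.39). *PPP1R15A*, which directs the phosphatase of eIF2alpha, was not called (log2 fold change -0.099, adjusted p = 0.219), although it was without TPC-1 replicate 2 (-0.17, adjusted p = 0.0199) and under voom (-0.16, adjusted p = 0.0274). It was nearest to 0 without TPC-1 replicate 1 (-0.057, adjusted p = 0.508). *EIF2B3*, a subunit of the exchange factor eIF2B, rose by 0.84 on the log2 scale. A split made after the values were seen set the 8 subunits of eIF2 and eIF2B, with 3 higher and 1 lower, apart from the other 12 genes, with 0 higher, 10 lower and a median of -1.65. Of the 3 other kinases of eIF2alpha, 2 were higher, among them *EIF2AK4* (log2 fold change 0.50). *EIF2AK1* was not called (log2 fold change 0.045) and changed sign when scaled to library totals and under voom. Of 6 mRNAs known as substrates of IRE1-dependent decay, *COL6A1* rose by 0.39 on the log2 scale, *SPARC* and *HGSNAT* fell by 0.21 and 0.35, and 3 were not called. That is 50% called, beside 67.6% of all genes tested.

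**Figure D3:**
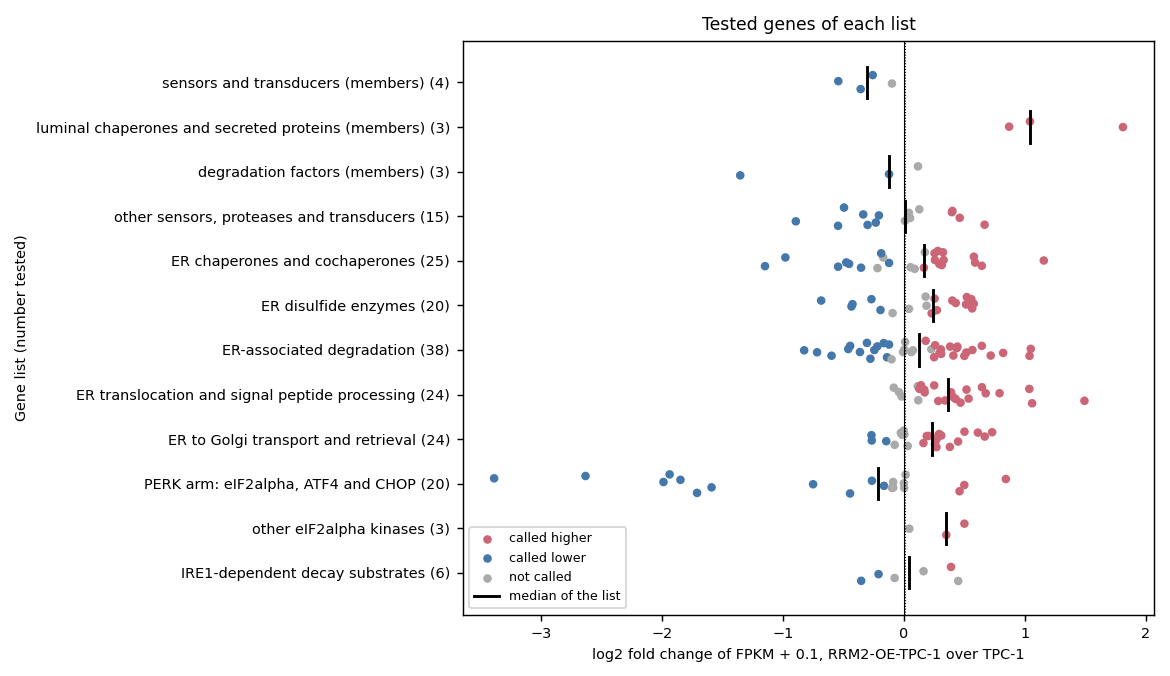
Log2 fold changes (*RRM2*-OE-TPC-1 over TPC-1, FPKM + 0.1) of the tested genes of each list, the 10 genes in the top 3 rows; each point is a gene, coloured by its call, and the black bar is the median of the list. The luminal proteins lie at 0.87 to 1.81, the sensors at -0.54 to -0.098, and the PERK list reaches -3.39.

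The elements shown above did not divide the genes by direction. Beside *CRELD2*, *XBP1*, *HERPUD1* and *SDF2L1*, 7 genes of the lists held an ERSE or ERSE-II: *CALR*, *CANX*, *HSP90B1*, *PDIA6*, *ERO1B*, *HSPA5* and *HYOU1*. *CANX*, *HSP90B1* and *PDIA6*, which encode a lectin chaperone, an HSP90 chaperone and a disulfide isomerase, rose by 0.59, 0.58 and 0.40 on the log2 scale. *ERO1B* (log2 fold change 0.19, adjusted p = 0.108) and *HYOU1* (0.090, adjusted p = 0.175) were not called. *ERO1B* was at 0.11 to 0.25 with single libraries left out and was called in none of these fits. *HYOU1* was called without TPC-1 replicate 1 (0.15, adjusted p = 0.0154) and was at 0.044 without TPC-1 replicate 2 (adjusted p = 0.476). *HYOU1* held 2 ERSE-II, of which the farther from the start overlapped a UPRE. Over all 44 gene symbols whose windows held either element, 29 were tested, of which 13 were higher, 7 were lower and 9 were not called, with a median log2 fold change of 0.19. Of all genes tested, 34.9% were higher and 32.7% lower, with a median of 0.011.

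**Figure D4:**
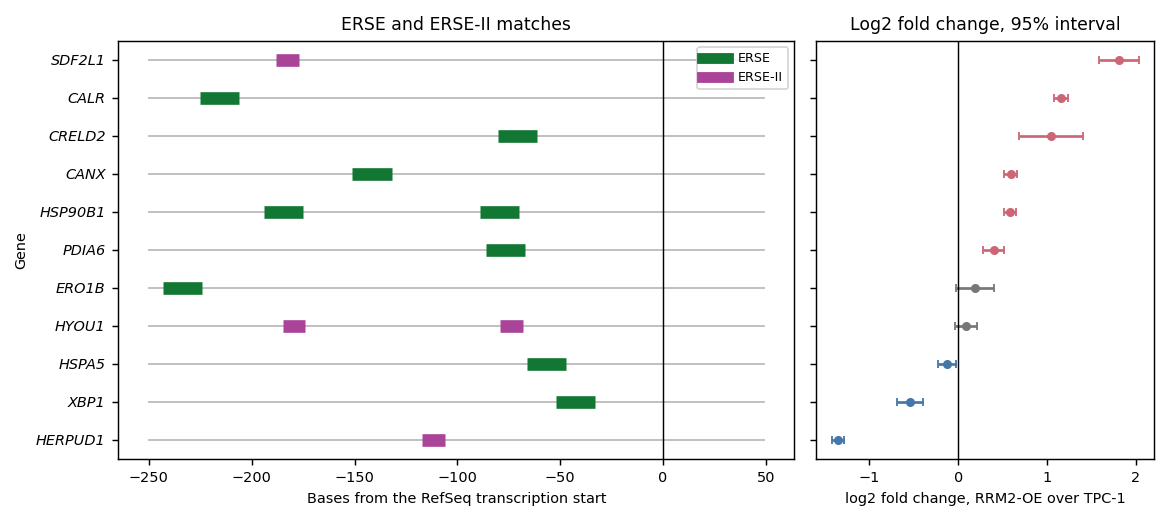
Left, positions of ERSE and ERSE-II matches (in bases from the RefSeq transcription start, from 250 before it to 50 after it) in the 11 genes of the lists that held one; right, their log2 fold changes (*RRM2*-OE-TPC-1 over TPC-1) with 95% intervals from limma. *SDF2L1* (1.81) and *HERPUD1* (-1.35) stand at the ends of the order, and both hold an ERSE-II.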

How the data were processed

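Reads cleaned with fastp were aligned with HISAT2 2.0.5 and counted with featureCounts 1.5.0, and the authors deposited FPKM for 58735 genes. Per the submitters' processing notes the build was GRCh38.p14, and all 58735 gene positions were those of GENCODE 29. FPKM times length gave whole reads for 100.0% of values (within 0.01), so the reads on genes were known: 14317091 to 17084067 per library. The depth that the deposited FPKM were scaled to was 1.031, 1.0488 and 1.0528 times these reads in TPC-1. In *RRM2*-OE-TPC-1 it was 1.0096, 1.0027 and 0.9971 times these reads. DESeq2 1.20.0 is the authors' own test and was not run here.

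Genes reaching 0.5 FPKM and 10 recovered reads in 3 libraries were tested on log2(FPKM + 0.1) with limma 3.58.1 (R 4.3.3; lmFit, eBayes with trend, two-sided, Benjamini-Hochberg over 13621 genes), and called at an adjusted p of 0.05 or less. A fold change on this scale understates changes of low genes. An exact permutation test of 3 against 3 libraries cannot go below p = 0.1 and was not used. The procedure was also run on simulated counts with far fewer changed genes than were called here. That run does not bear on the calls. Tables and figures were made with Python 3.11.15, numpy 2.4.6, pandas 2.3.3 and matplotlib 3.10.9. Promoter windows came from RefSeq.

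The 10 genes and the lists were chosen with earlier results of these data known. Of each list the text names the 2 tested genes with the highest mean FPKM and the called genes with the largest increase and decrease, and also *HSPA5*, *ATF4*, *DDIT3*, *DNAJC3* and *PPP1R15A*. *SDF2*, *CRELD1*, *NFYA* and *NFYC* were named after their values were seen, and *CANX*, *HSP90B1*, *PDIA6*, *ERO1B* and *HYOU1* for their promoter elements. Alternatives were pseudocounts of 1 and 0.01, no filter, protein-coding genes only, other scalings, a replicate block, each library left out and a fold change minimum, with voom on recovered reads added after seeing the data. Some marker genes are not reported singly here.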

Additional observations from a re-analysis of the deposited data

How the results depend on the processing

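In the main test 9207 genes, 8 of the 10 response genes and 134 of the 175 tested genes of the pathway lists were called, and 1560, 3 and 14 were called when a log2 fold change of at least 1 in size was also asked for. With each library left out in turn these counts were 8555 to 8772, 6 to 8 and 123 to 133, and *RRM2* had a log2 fold change of 2.39 to 2.45. The calls of *SDF2L1*, *CRELD2*, *MANF*, *HERPUD1*, *XBP1* and *ATF6* were kept under all 14 alternatives with a value per gene. *ERN1* was called under 10, *EDEM1* under 7, *SEL1L* under 1 and *EIF2AK3* under 0. Without the filter on low values, *ERN1* (adjusted p = 0.0876) and *EDEM1* (0.0625) lost their calls, where more genes were tested. None of the 10 genes changed sign in any of these. Signs turned for *TMBIM6* (-0.049 with library totals, -0.050 under voom, -0.0028 to 0.025 with single libraries left out, negative without *RRM2*-OE replicate 1) and *EIF2AK1* (-0.012 with library totals and -0.012 under voom). The sign of *NFYC* also turned, with -0.014 as its lowest value. The median of all genes shifted to -0.045 with library totals and to -0.048 under voom, and was 0.011 with median-of-ratios factors. None of these 3 uses the depth of the deposited FPKM. That depth was 1.031 to 1.0528 times the reads on genes in TPC-1 and 0.9971 to 1.0096 times in *RRM2*-OE-TPC-1. The cause of the turned signs was not tested. All genes called higher and lower numbered 4758 and 4449 in the main test, 4259 and 4977 with library totals, and 4380 and 5151 under voom, while 3 of the 10 were higher and 5 lower in each.

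Replicates with the same number showed no shared deviation (correlations of -0.011, -0.006 and -0.055, and -0.048 to 0.061 between different numbers). These values cannot settle whether the libraries were prepared in matched sets, since a weak pairing might not show. With the replicate number as a block, 8934 genes and 7 of the 10 were called, and *EDEM1* was not (adjusted p = 0.0686). edgeR and DESeq2 on recovered reads were planned and not run, and voom on those reads was run in their place. With 3 libraries per group and 239 to 291 reads per library, a small change of *EIF2AK3* could be missed.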
